A study of Mus musculus with 21 samples.

Results

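The regions described here carried an anti-Myc ChIP-seq peak whether or not the Myc-tagged Sox7 transgene had been switched on. Peaks of the 8 ChIP lists were merged where they overlapped by 1 bp or more, which gave 4548 regions, and a region was kept if each of the 4 induced libraries, and each of the 3 uninduced libraries counted, held a peak in it. This rule kept 478 regions, called constant regions below, or 10.5% of all merged ChIP regions. The members were thus chosen by their presence in the ChIP lists, so that presence and the ChIP scores are given as a description with no test. Of the 478 regions, 392 overlapped a peak of the input list and 86 did not.

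All cells were mouse embryonic stem cells of A2lox-Sox7-Myc, a line made from E14Tg2a, in which doxycycline switches on Myc-tagged Sox7, and all were collected as embryoid bodies at day 4 of differentiation. Induced cells had received 1 µg/ml doxycycline for 24 h, and uninduced cells, from the same line and so with the same silent transgene, had received none. Anti-Myc ChIP was done on unsorted cells (4 induced and 4 uninduced samples), beside 1 input sample of uninduced, unsorted cells taken without antibody. ATAC-seq, which finds open chromatin by transposase insertion, was done on sorted PDGFRα-FLK1+ cells, named EPC for endothelial progenitors, and on PDGFRα+FLK1+ cells, named CPC for cardiac progenitors, with 2 induced and 2 uninduced samples of each. Per the labels every sample comes from this single line. The groups follow the sample characteristics, although a PDGFRα+FLK1- sort is what the protocol text describes. Uninduced replicates 2 and 4 had 585 equal peak starts, 75.8% of the 772 in the shorter list, and were counted as 1 library.

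Input chromatin is sheared and sequenced without antibody, so a peak in an input list marks a place where reads pile up whatever protein is bound, as is known of multi-copy sequences that a genome assembly holds incompletely. Small nuclear RNA (snRNA) genes encode the short RNAs of the spliceosome and of histone mRNA processing. Most kinds of snRNA are transcribed at a very high rate by RNA polymerase II from compact promoters of their own. The U6 and 7SK RNA genes use related promoters that recruit RNA polymerase III. Replication-dependent histone genes are likewise short, strongly transcribed and clustered.

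Among the 86 regions off input peaks, 38 contained an annotated snRNA gene, so sequences are shown first for the 2 snRNA genes that lie whole inside a window of the promoter table and for 2 histone promoters in the same class of regions. The windows run from 250 bases before to 50 bases after a gene's start in RefSeq annotation of GRCm38.p6, and they are written 5′ to 3′ on the strand of the gene that owns the window. In the first pair the capitals mark the letters under the annotated snRNA gene. Rnu7, the U7 RNA of histone mRNA 3′ end processing, takes bases 34 to 95 of the window of Grcc10 (chr6:124741020-124741319, minus strand), and LOC115489800 takes bases 58 to 223 of the window of Gm26232 (chr3:96450389-96450688, plus strand).
Rnu7 in the Grcc10 window: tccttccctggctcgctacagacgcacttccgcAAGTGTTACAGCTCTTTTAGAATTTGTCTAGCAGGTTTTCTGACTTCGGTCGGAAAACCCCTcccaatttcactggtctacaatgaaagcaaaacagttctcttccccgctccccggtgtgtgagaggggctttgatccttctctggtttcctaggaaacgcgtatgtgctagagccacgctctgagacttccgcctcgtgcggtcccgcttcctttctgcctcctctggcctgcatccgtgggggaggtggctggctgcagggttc
LOC115489800 in the Gm26232 window: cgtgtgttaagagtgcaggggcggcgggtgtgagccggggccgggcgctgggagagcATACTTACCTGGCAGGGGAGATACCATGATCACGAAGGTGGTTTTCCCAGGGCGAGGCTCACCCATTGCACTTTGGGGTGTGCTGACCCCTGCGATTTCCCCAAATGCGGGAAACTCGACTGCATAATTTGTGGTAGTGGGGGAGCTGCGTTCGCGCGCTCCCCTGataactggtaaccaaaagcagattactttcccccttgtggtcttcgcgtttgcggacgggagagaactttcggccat

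In the second pair the capitals mark matches to searched motifs on either strand. These are the promoters of H1f3, a linker histone gene (chr13:23554782-23555081, plus strand), and of H2bc6, a gene of core histone H2B (chr13:23621045-23621344, minus strand).
H1f3: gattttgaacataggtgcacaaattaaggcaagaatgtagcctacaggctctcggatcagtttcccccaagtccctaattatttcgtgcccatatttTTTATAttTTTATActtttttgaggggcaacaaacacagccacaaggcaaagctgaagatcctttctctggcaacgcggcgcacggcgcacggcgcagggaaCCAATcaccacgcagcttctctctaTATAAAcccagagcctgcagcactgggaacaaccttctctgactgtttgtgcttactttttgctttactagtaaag
H2bc6: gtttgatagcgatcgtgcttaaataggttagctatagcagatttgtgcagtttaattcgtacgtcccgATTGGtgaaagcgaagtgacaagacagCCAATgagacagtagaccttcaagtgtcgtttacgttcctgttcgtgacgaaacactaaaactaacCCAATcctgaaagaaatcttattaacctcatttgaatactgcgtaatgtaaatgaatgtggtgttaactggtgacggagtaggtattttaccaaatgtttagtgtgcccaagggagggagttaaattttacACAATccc

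In the H1f3 window a CCAAT motif starts 51 bases before the gene's start and TATAAA motifs start 26, 145 and 153 bases before it. In the H2bc6 window CCAAT motifs start 89, 155 and 182 bases before the start, and ACAAT, the core of SOX binding motifs, starts 42 bases after it. The E-box CACGTG, the preferred site of Myc and Max, was in the windows of 0 of 6 genes whose start lies in an off-input constant region and of 0 of 11 genes on input, against 7.15% of all 32851 windows of the table. The 11 genes on input have 14 windows, as 3 of them have a pair that overlap, and 1 window, that of Asmt, holds 250 unknown bases. CCAAT was found for 4 of 6 genes off input and 4 of 11 on input (37.4% of all windows), and ACAAT for 3 of 6 and 3 of 11 (31.0% of all windows). TATAAA, a search added after the data had been seen, was found for 1 of 6 and 1 of 11 (13.6% of all windows). CCGGAAGT, an ETS motif, was found for 1 and 0 genes (3.89% of all windows), and the NRF1 motif, searched by its consensus, for 0 and 0 (0.971%). The motif of the Gata factors, AGATAA, was found for 1 and 1 (11.2%).

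The lists held 1061 to 2807 peaks in the induced and 772 to 1059 in the uninduced ChIP libraries, 689 in the input, and 23068 to 30732 in the ATAC libraries. No list gives read counts, so the depth of every library is unknown and a missing peak may reflect a shallow library. As a check of the sorted cells, gene bodies of the sorting receptors Kdr and Pdgfra held ATAC peaks in 4 of 4 EPC and 4 of 4 CPC libraries, so presence of a peak at Pdgfra did not separate the sorts. Of 6 endothelial markers, all with peaks in 4 of 4 EPC libraries, Fli1 had one in 1, Cdh5 and Tek in 3, and Flt1, Pecam1 and Erg in 4 of 4 CPC libraries. Of 5 blood markers, likewise at 4 of 4 in EPC, Gata1 was at 0, Gata2 at 3, and Tal1, Runx1 and Spi1 at 4 of 4 CPC libraries. All 6 cardiac markers (Gata4, Hand1, Hand2, Tbx20, Isl1 and Mef2c) held peaks in 4 of 4 libraries of both sorts, so most markers did not separate them by presence. The pluripotency genes Pou5f1, Nanog and Sox2 held peaks in 0, 1 and 4 EPC libraries and in 0, 0 and 2 CPC libraries. In these pools of cells, a site open in fewer cells and a site less open in each cell cannot be told apart.

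The rule requires a peak in every counted list, so each list necessarily placed a nearly fixed number of peaks on the constant regions. The lists themselves differed much in length, so the share of each list varied. Induced replicates 1 to 4 placed 480, 481, 485 and 485 peaks on them, or 31.8%, 26.0%, 17.3% and 45.7% of each list. Uninduced replicates 1 to 4 placed 483, 481, 484 and 470 peaks, or 52.0%, 47.4%, 45.7% and 60.9% of each list. Of the 478 regions, 465 were present in every one of the 8 lists, 12 lacked one in uninduced replicate 4 and 1 lacked one in uninduced replicate 2. The strongest peaks were also here: of the 52 to 72 peaks with a score of 1000 or more in each ChIP list, all lay on constant regions except 2 in induced replicate 3. The score is that of the authors' peak caller, a log-scaled p-value in the MACS 1.4 format that grows as the p-value falls, and it is used only within a list.

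**Figure D1:**
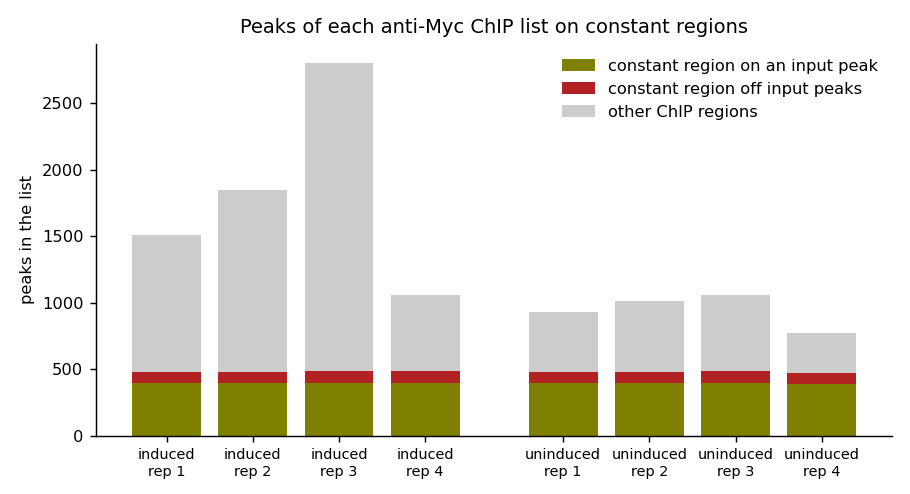
Number of peaks in each anti-Myc ChIP list (bars, induced left of uninduced), split into peaks on constant regions that overlap an input peak, on constant regions that do not, and on all other merged ChIP regions. The coloured part, whose height the rule nearly fixes, is 470 to 485 peaks high in every list, while the grey part varies.

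Just outside the rule lay 111 regions that lacked a peak in 1 of the 7 libraries counted, 73 of them in an induced library and 38 in an uninduced one. Induced replicate 1 was the missing library for 38 of these, and every other library for 7 to 16. The median of the mean within-list rank, on which 100 is the highest score of a list and which averages over the libraries counted, was 80.0 for constant regions and 47.8 for those 111 regions. Thus the regions just outside had lower scores than those inside, and 63 of them overlapped an input peak.

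The 392 constant regions on input peaks were 82.0% of the set (exact binomial 95% interval 78.3 to 85.3), against 14.2% of all merged ChIP regions. Seen from the input list, 400 of its 689 peaks (58.1%) lay on a constant region, 254 on another ChIP region and 35 on none. The median input score was 177.6 on constant regions and 52.7 elsewhere, and all 48 input peaks with a score of 1000 or more lay on constant regions. Only 1 input list exists, so this overlap has no replicate check. Its cells were uninduced.

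Most of the strongest on-input regions had nearly the same top score in every list. Of the 10 with the highest mean rank, 6 had no protein-coding gene within 50 kb, while 65.8% of all 392 on-input regions had one. These lay at chr2:57628967-57630270, chr12:74803344-74805043, chr12:3109325-3110664, chr14:19415165-19419860, chrX:170757640-170758669 and chr4:3088972-3091975. The others lay inside Mdga2 and Chl1, genes of neuronal cell adhesion proteins, 28.7 kb from Rpusd4 and 20.6 kb from Ly6c2. Most of these peaks shared a score of 3100, so their order carries no meaning, and all 10 regions had an ATAC peak in all 8 ATAC libraries.

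Some on-input regions overlap multi-copy genes of known kinds. The region at Rn18s-rs5, a sequence related to 18S ribosomal RNA (chr17:39842489-39849353), scored 2140.0, 2973, 3062 and 2819 in induced replicates 1 to 4 and 1832, 2091, 1959 and 2089 in uninduced replicates 1 to 4. It ranked near the top of every list, and it had an ATAC peak in all 8 libraries. The immunoglobulin heavy chain locus Igh held 6 on-input regions and 1 off input between chr12:115063692 and chr12:115619091. Of those 7 regions, 2 had an ATAC peak in all 8 libraries, 2 in 5 libraries and 3 in none.

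Some on-input regions sat together at the start of the assembled chromosomes. All 24 constant regions that start below 3.5 Mb, on 12 chromosomes, were on input peaks, beside 81 merged ChIP regions and 42 input peaks there. Groups of on-input regions less than 50 kb apart included 4 at chr17:3004212-3085029, 3 at chr4:3049858-3091975, 3 in or within 2.11 kb of Tmem267 (chr13:119595397-119617792), and 3 at Csf2ra, a cytokine receptor subunit gene (chr19:61199172-61267678). Of the last 3, 1 lies inside Csf2ra and the others 16.8 and 36.8 kb from it. In all, 40 of the 392 on-input regions (10.2%) stood in 17 such groups.

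Among the 86 off-input regions, snRNA genes were the most frequent short RNA genes. An annotated snRNA gene lay in 38 of them (44.2%, exact 95% interval 33.5 to 55.3), in 1 of the 392 on-input regions (0.255%) and in 1.03% of all merged ChIP regions. The off-input share was 79.1% with ChIP scores of 100 or more and 20.9% with input scores of 100 or more. This split by snRNA gene was made after the data had been seen and is not tested. The 38 regions held 39 snRNA genes, each of them whole, with a median distance of 332.5 bp between the centre of the gene and the centre of the region (85 to 639.5 bp). The 10 off-input regions with the highest mean rank all held an snRNA gene: Gm25099, Rnu11, Rnu2-10, Rnu3b1, Gm25939, Gm24950, Rnu3b3, LOC115489800, Rnu5g and Rnu1b6.

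RNAs of both spliceosomes were represented. Rnu11, the U11 RNA of the minor spliceosome, lies in chr4:132268993-132270659, which scored 723, 607, 703 and 634 in induced replicates 1 to 4 and 638, 589.8, 467 and 589.8 in uninduced replicates 1 to 4. Rnu12, its U12 partner at the branch point, lies in chr15:83149171-83150665 inside Poldip3, with scores of 293, 244, 417 and 189 in induced and 251, 229, 285 and 229 in uninduced replicates. Rnu2-10, the U2 RNA of the major spliceosome, lies in chr11:101657762-101659935, with scores of 624, 542, 851 and 539 in induced and 457, 577, 675 and 577 in uninduced replicates. For each of these genes the ranges of the induced and uninduced lists overlapped, and since scores follow depth no difference between lists is read from them.

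The same held for the other RNAs with names. Rnu1b6, a U1 RNA gene of 5′ splice site recognition (region chr3:96458472-96460588), scored 472, 376, 429 and 381 in induced and 359, 386, 322 and 386 in uninduced replicates. Rnu5g, a U5 RNA gene (chr9:65200442-65202360), scored 440.5, 342, 683 and 346 in induced and 314, 405, 407 and 427 in uninduced replicates. Rnu3b1, a U3 RNA gene of ribosomal RNA processing that the table types as snRNA (chr11:87442830-87444386), scored 620.3, 459, 859.6 and 609 in induced and 499, 515, 490.3 and 515 in uninduced replicates. Rnu7 was among the weaker ones (chr6:124740245-124741734), with 209.5, 70.6, 113 and 94.0 in induced and 92.65, 76.0, 107 and 75.5 in uninduced replicates. Its region also held the start of Grcc10, shown in the Rnu7 window above, and the input list had no peak there.

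Within each list, peaks at the 38 snRNA regions had a higher median score than peaks at the remaining 48 off-input regions. The median score at snRNA regions was 368, 295, 425 and 347 in induced replicates 1 to 4 and 254, 271, 338 and 277 in uninduced replicates 1 to 4. At the other off-input regions it was 89.1, 144.8, 154 and 81.8 in induced and 126, 118.5, 158 and 144.0 in uninduced replicates. On input it was 247, 328, 325 and 256 in induced and 259.96, 284, 319 and 287 in uninduced replicates, so the snRNA median was the higher of the 2 in induced replicates 1, 3 and 4 and in uninduced replicate 3, and the lower in the other 4 lists.

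Most annotated snRNA genes had no constant region, and those that had one differed from the rest both in length and in ATAC peaks. The gene table lists 1004 snRNA genes on the chromosomes used, and 40 of them (3.98%) overlapped a constant region. Of the 706 genes 100 to 110 bp long, the length of the Rnu6 entry (107 bp), 2 did (0.283%), namely Rnu11 and Gm25101, the gene on an input peak. Of the 298 genes of other lengths 38 did (12.8%, exact 95% interval 9.18 to 17.1). Among them, 9 of 15 genes of 191 bp, 7 of 9 of 116 bp, 7 of 34 of 164 bp and 3 of 3 of 215 bp had one. By ATAC, 38 of the 45 snRNA genes with a peak in all 8 libraries had a constant region, against 1 of the 941 with no ATAC peak. Of those 45 genes, 2 were 100 to 110 bp long, and 1 of the 2 had a constant region.

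**Figure D2:**
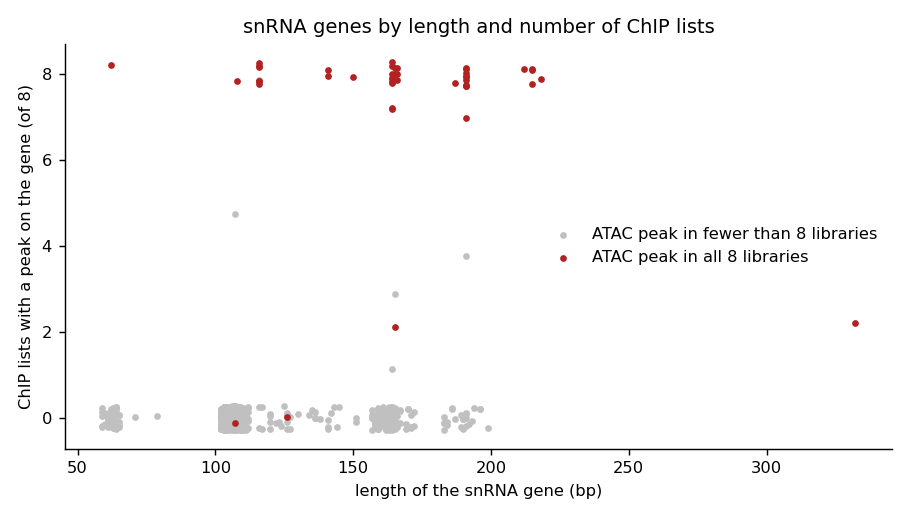
Each point is 1 of 1004 annotated snRNA genes, placed by its length (bp) and by the number of ChIP lists (of 8) with a peak on it, with small random shifts up and down to part the points. Genes with an ATAC peak in all 8 libraries (red) lie mostly at 8 lists, and the dense column of genes of 100 to 110 bp lies at 0 lists.

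By name, 12 of the 15 genes called Rnu had a constant region: Rnu1a1, Rnu1b6, Rnu2-10, Rnu3a, Rnu3b1, Rnu3b2, Rnu3b3, Rnu3b4, Rnu5g, Rnu7, Rnu11 and Rnu12. Rnu1b1 had a peak in 2 lists, both induced, Rnu1b2 in 3 lists, and Rnu6, the U6 RNA transcribed by RNA polymerase III, in 0 ChIP lists and 0 ATAC libraries. Many snRNA genes are near-identical copies, and how reads that fit several copies were placed is not given in the sources used here, so which copy bore a peak is uncertain.

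Other short RNA genes, picked with these results known, were read the same way. Among genes that RNA polymerase III transcribes from promoters of the same kind as Rnu6, Rn7sk, the 7SK RNA that holds back transcription elongation, had a peak in 2 induced and 0 uninduced lists with ATAC peaks in 8 libraries. Rmrp and Rpph1, the RNAs of RNase MRP and RNase P, had 0 ChIP peaks with ATAC peaks in 8 libraries each. Rny1 and Rny3, Y RNA genes, had ChIP peaks in 2 and 0 lists, with ATAC peaks in 7 and 3 libraries. Snord118, the U8 RNA of ribosome maturation, which unlike most snoRNA genes has a promoter of its own, had a peak in all 8 lists. Its region, which overlaps Tmem107 (chr11:69072967-69074444), scored 393, 263, 376 and 299.8 in induced and 244, 136, 267 and 144 in uninduced replicates. Terc, the telomerase RNA, had 0 ChIP peaks with ATAC peaks in 6 libraries.

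Of 408 transfer RNA genes, 7 lay on a constant region and 126 on any merged ChIP region. By region, tRNA genes were in 4 constant regions (0.837%), against 1.82% of all merged ChIP regions. A single region near Abt1 held n-TVcac2, n-TAagc7 and n-TVaac5 (chr13:23410486-23413510), and its scores were 126.8, 85.4, 130.9 and 65.9 in induced replicates and 55.2, 49.0 and 55.7 in uninduced replicates 1 to 3, with no peak in replicate 4. Of 1340 snoRNA genes 2 lay on constant regions, and of 63 genes typed as ribosomal RNA none did.

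Of 1228 miRNA genes 1 lay on a constant region, Mir6236, on an input peak at chr9:110280763-110281883. Its mature RNA (chr9:110281353-110281371, plus strand), with the seed in capitals, is shown as the only miRNA of the set.
mmu-miR-6236: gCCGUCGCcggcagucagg

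The snRNA regions were clustered. Of the 38, 28 (73.7%) stood less than 50 kb from another in 7 groups, against 15.9% of all constant regions in such groups. The largest group spanned chr11:87422428-87472730 with 6 regions at Rnu1a1, Gm22068 and Rnu3b1 to Rnu3b4, and all 6 overlap Tex14, a gene of germ cell bridges. Other groups held 5 regions at chr12:54696217-54739040, 4 at chr1:72225779-72256464, 4 with Rnu2-10 at chr11:101626913-101659935, 4 with Rnu1b6 at chr3:96450025-96489592 and 3 at chr4:117189513-117211731. Chromosome 11 accordingly had 14 of the 86 off-input regions, 11 of them with an snRNA gene, while chromosomes 16 and Y had 0 off-input among 17 and 6 constant regions.

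The 48 off-input regions without an snRNA gene included 2 at histone genes of the chromosome 13 cluster. The region at H1f3 (chr13:23554716-23556822) scored 87.6, 69.9, 74.2 and 156 in induced replicates 1 to 4 and 221, 145, 57.65 and 145 in uninduced replicates 1 to 4. The region shared by H1f4 and H2bc6 (chr13:23620841-23622469) scored 214, 129.7, 124 and 131 in induced and 106, 112, 89.0 and 112 in uninduced replicates. Both had an ATAC peak in all 8 libraries, and the printed H1f3 and H2bc6 promoters lie inside them. In the list of 102 histone genes, these 3 had a constant region (2.94%, against 1.37% of all protein-coding genes) and 47 had any merged ChIP region (46.1%, against 12.7%).

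Others had no ATAC peak on the region itself in any library. The region inside Flt1, a VEGF receptor gene of endothelium (chr5:147610900-147612061), scored 190.2, 451, 547 and 192 in induced and 217, 355, 425 and 355 in uninduced replicates, with an ATAC peak in 0 of 8 libraries. Elsewhere in its gene body Flt1 held ATAC peaks in 4 of 4 EPC and 4 of 4 CPC libraries. A region of 1127 bp inside Kif26b, a kinesin family gene, had an ATAC peak in 0 libraries. So did one of 1164 bp at chr5:146666077-146667240, which lies 67.6 kb from the nearest protein-coding gene. These 3 had the highest mean rank among the 19 off-input regions without any ATAC peak. On input, 55 regions had none, led by a region at Gm52332 and ones at Dock2 and 17.4 kb from Ndufb3.

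Widths of the merged regions are described by class. Constant regions were 783 to 8179 bp wide with a median of 1231.5 bp, against 942.5 bp for the other merged ChIP regions. The median was 1722 bp for snRNA regions (1235 to 2333 bp), 1143.5 bp for the other off-input regions (995 to 6233 bp) and 1214 bp on input. A width of 1000 to 1200 bp was found in 0 of 38 snRNA regions, in 32 of 48 other off-input regions (66.7%) and in 171 of 392 on-input regions (43.6%). Merging 8 lists sets part of this width, and a region in more lists has more peaks to merge.

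**Figure D3:**
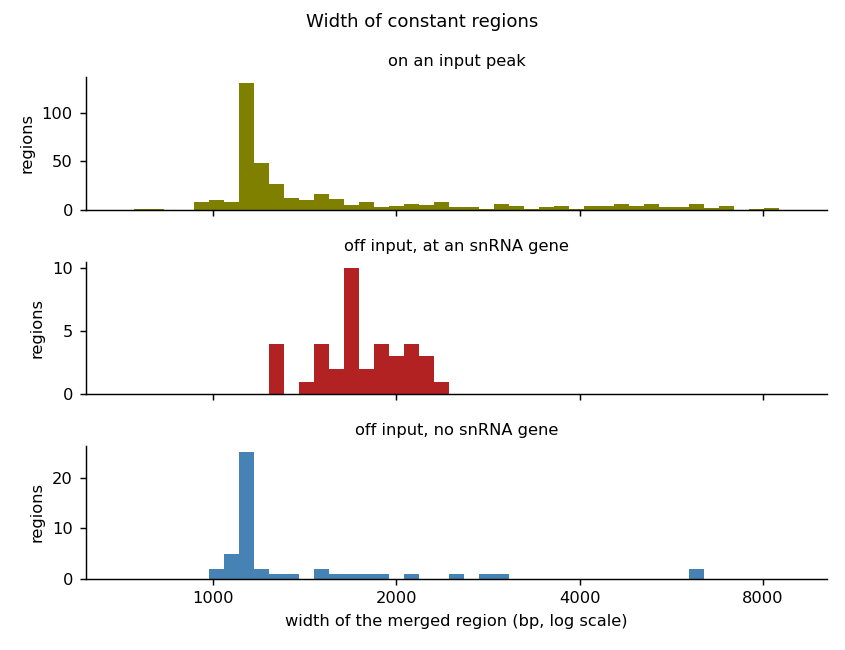
Histograms of the width of merged constant regions (bp, log axis), with the number of regions on the vertical axis, on an input peak, off input at an snRNA gene, and off input without one. A tall bar just above 1000 bp appears in the upper and lower panels and not in the middle one, where widths run from 1235 to 2333 bp.

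The widest regions were on input: 8179 bp in Tmem267, 8044 bp at chr4:3079198-3087241 and 7695 bp in Gm7592. Off input they were 6233 bp at Gm38510 and Gm7609 (chr1:85211158-85217390), 6051 bp in Igh (chr12:115201426-115207476) and 3025 bp at the tRNA genes near Abt1. All constant regions together covered 892250 bp.

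The ATAC lists, which the rule did not use, were then read at these regions. A region was called open in a library if an ATAC peak overlapped it. The ATAC samples have no control list. At regions on input peaks, an ATAC peak from open chromatin and one from piled-up reads therefore cannot be told apart. There, open means only that a peak was called. Of the 478 constant regions 288 (60.3%) were open in all 8 libraries, against 17.6% of merged ChIP regions and 25.5% of merged ATAC regions, and 74 (15.5%) in none, against 47.5% of merged ChIP regions. Open in all 8 libraries were 236 of 392 regions on input, 37 of 38 at snRNA genes and 15 of 48 of the other off-input regions. The one snRNA region not open in all was that of Gm23287 (chr4:117210441-117211731), which lacked a peak in uninduced CPC replicate 2.

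**Figure D4:**
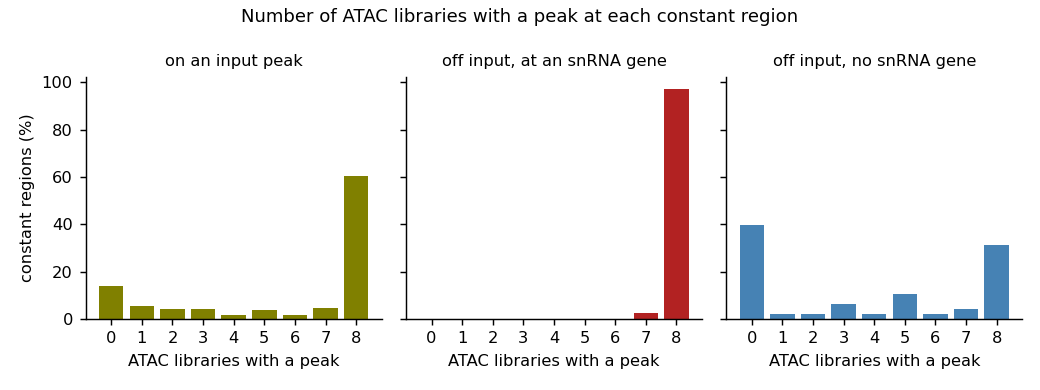
Share of constant regions (%) by the number of ATAC libraries, from 0 to 8, that had a peak there, in panels for regions on an input peak, off input at an snRNA gene, and off input without one. At snRNA genes 97.4% stand at 8 libraries, and the right panel has its highest bars at 0 and 8 (39.6% and 31.3%).

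Per library, the share of constant regions that were open was 68.2% and 72.6% in induced EPC, 74.5% and 73.2% in uninduced EPC, 71.1% and 69.9% in induced CPC and 74.3% and 70.5% in uninduced CPC. At other merged ChIP regions it was 37.7% and 39.7% in induced EPC, 27.3% and 22.6% in uninduced EPC, 33.7% and 32.7% in induced CPC and 21.0% and 18.0% in uninduced CPC. The lowest share of the constant regions lay above the highest share of the others. The difference, constant minus other ChIP regions, averaged 42.7 percentage points over 8 libraries and was positive in 8 of 8 (two-sided exact sign-flip permutation test, p = 0.00781, the smallest it can give, and 0.0521 after Benjamini-Hochberg adjustment over 20 tests). It was 41.8 points among on-input regions and 41.4 points among off-input regions, each with the same p-values, so after adjustment none of the 3 passed 0.05. The same regions were read in each library, so the test speaks of the libraries and not of the sampling of regions. The sets were not matched for median width (1231.5 against 942.5 bp) or median of the mean ChIP rank (80.0 against 31.3). What width and rank contribute was not tested.

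**Figure D5:**
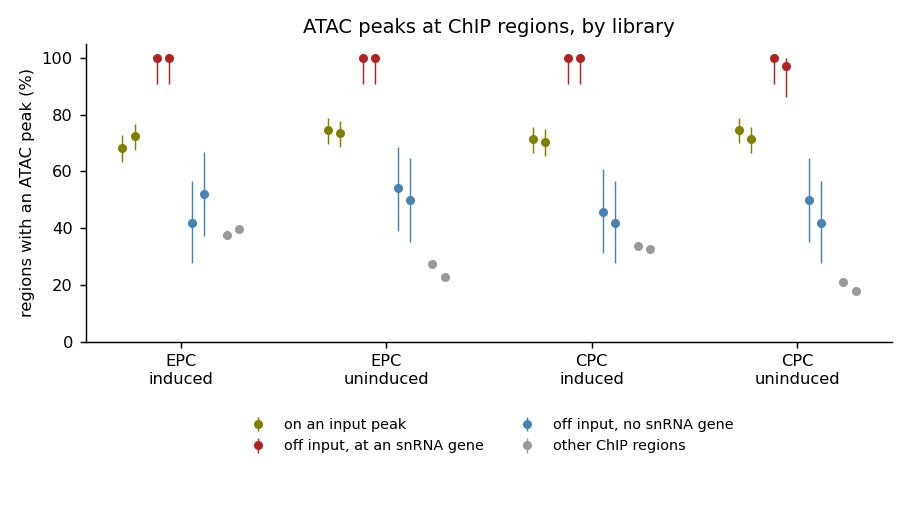
Share of regions with an ATAC peak (%) in each library, 2 points per group, for constant regions on an input peak, off input at an snRNA gene and off input without one, and for the other merged ChIP regions. Lines are exact binomial 95% intervals, which stand for counting error only and are shorter than the point itself for the other regions. The snRNA regions lie at 97.4% to 100% in every library, the on-input regions at 68.4% to 74.7%.

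No difference between induced and uninduced libraries passed the test at the constant regions. The open share was 70.4% ± 3.11 in induced and 73.8% ± 0.888 in uninduced EPC, and 70.5% ± 0.888 in induced and 72.4% ± 2.66 in uninduced CPC (SD, n = 2 each). Induced minus uninduced was -2.67 percentage points over both cell types (two-sided exact permutation test within cell type, p = 0.167, adjusted p = 0.476, smallest possible p 0.0556). In EPC alone it was -3.45 points (exact p = 0.333) and in CPC alone -1.88 points (exact p = 0.667), where 2 against 2 libraries cannot go below 0.333. On input it was -2.87 points (exact p = 0.111, adjusted p = 0.370) and off input -1.74 points (exact p = 0.5, adjusted p = 0.769).

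No difference between the sorted cell types passed the test either. The open share was 72.1% ± 2.73 in EPC and 71.4% ± 1.95 in CPC libraries (SD, n = 4 each), a difference of 0.680 points (exact permutation within doxycycline state, p = 0.722, adjusted p = 0.802). Its sign turned under several other settings, given in the closing section. EPC minus CPC was 0.191 points on input (exact p = 1) and 2.91 points off input (exact p = 0.389). That none passed does not show that the groups are alike.

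Between the classes, the open share averaged 72.1% ± 2.15 on input and 70.3% ± 3.04 off input (SD, n = 8 libraries). On minus off input was 1.75 points (exact sign-flip p = 0.0234, adjusted p = 0.117), which does not pass after adjustment, and it reversed to -3.87 points when ChIP peaks with a score under 100 were dropped. The off-input mean joins unlike regions: the snRNA regions were open at 97.4% to 100% per library and the other off-input regions at 41.7% to 54.2%. Within the ATAC lists, peaks at snRNA regions had a median rank of 89.6 to 93.1 over the 8 libraries, against 49.6 to 66.2 at the other off-input regions.

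The rank of the ATAC peaks themselves was also compared. The median rank on input averaged 79.3 ± 0.896 over induced libraries and 81.8 ± 1.71 over uninduced ones (SD, n = 4 each), a difference of -2.52 (exact permutation p = 0.111, adjusted p = 0.370). Off input it averaged 89.7 ± 0.830 over induced libraries and 89.0 ± 1.26 over uninduced ones, a difference of 0.698 (exact p = 0.5, adjusted p = 0.769). EPC minus CPC was -0.929 on input (exact p = 0.444) and 0.578 off input (exact p = 0.611). None of these 4 differences passed the test.

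Among constant regions, gains on induction were below the shares of all merged ChIP and ATAC regions. Losses were above the share of merged ChIP regions in both cell types. The 288 regions open in all 8 libraries can be called neither gained nor lost. A region was called gained in a cell type if both induced and neither uninduced library had a peak, and lost if the reverse. In EPC 3 constant regions (0.628%) were gained, against 9.45% of merged ChIP regions and 6.12% of merged ATAC regions, and 11 (2.30%) were lost, against 0.792% and 1.82%. In CPC 4 (0.837%) were gained, against 9.21% and 5.75%, and 4 (0.837%) were lost, against 0.308% and 2.35%. Of the 253 other ChIP regions on input peaks, 0.395% were gained and 3.16% lost in EPC, and 1.19% and 0.791% in CPC. On input, low gains and such losses were thus not particular to constant regions. Off input, 1.16% of constant regions were gained in EPC and 2.33% in CPC, against 11.2% and 10.8% of other ChIP regions. Losses there were 1.16% and 2.33%, against 0.445% and 0.210%, on counts of 1 and 2. The snRNA regions held 0 gained and 0 lost regions in either cell type. Constant regions lost in EPC included ones inside Fbxw4, Immp2l, Dclk2, Pcnx2 and Csf2ra.

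Gained in CPC were a region inside Esr1, the estrogen receptor gene, one 12.7 kb from Lyzl1, one 57.3 kb from the nearest protein-coding gene, and chr12:7925661-7926799. The last was also lost in EPC, so it had peaks in both induced CPC and both uninduced EPC libraries and in none of the other 4. It was the only constant region with a call in both cell types. Regions open in all 4 libraries of one sort and none of the other numbered 0 for EPC, against 0.77% of merged ChIP regions and 2.1% of merged ATAC regions. They numbered 0 for CPC, against 0.242% and 1.8%, and 0 of 478 regions allows a share of up to 0.628%.

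Taken as 1 set, constant regions were near genes less often than all merged ChIP regions, a description with no test. They overlapped a protein-coding gene in 172 cases (36.0%), against 44.3% of all merged ChIP regions, and 38 (7.95%) were at most 1 kb from a boundary of such a gene, against 10.2%. A protein-coding gene within 50 kb was found for 329 regions (68.8%), against 77.1%. The start of a gene in the promoter table lay in 17 regions (3.56%), 6 of them off input, against 4.62% of all. Of 21887 protein-coding genes, 300 (1.37%) were assigned to a constant region.

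Counts for gene lists are read against all protein-coding genes, of which 1.37% were assigned a constant region, and most lists hold too few genes to read a count of 0 as a result. A constant region was assigned to 0 of 26 Myc target genes, 0 of 21 blood, 0 of 25 cardiac, 0 of 15 early mesoderm, 0 of 20 pluripotency and 0 of 82 ribosomal protein genes. It was assigned to 1 of 29 endothelial genes (Flt1), 2 of 23 endoderm genes, 1 of 20 SOX genes (Sox3, 32.0 kb away, with no ATAC peak) and 1 of 20 housekeeping genes. Of 1465 olfactory and vomeronasal receptor genes 4 had one, and of 397 genes named Zfp 8 did, 4 of them (Zfp982, Zfp985, Zfp992 and Zfp993) in a run of zinc finger genes on chromosome 4 with regions of 3074 to 6330 bp.

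The endoderm genes were on input peaks. The region inside Lama1, a basement membrane laminin gene (chr17:67740829-67742069), scored 822, 1113, 1271 and 813 in induced and 1054, 1139, 1138 and 1144 in uninduced replicates and was open in 8 libraries. The region inside Dab2, an endocytic adaptor gene of endoderm (chr15:6316356-6317505), scored 205, 273, 266 and 197 in induced and 194, 186, 219 and 187 in uninduced replicates and was open in 3. The region at Eef2, a translation elongation factor gene, also overlaps the snoRNA gene Snord37 (chr10:81177550-81179622). Its scores were 89.9, 70.1, 85.2 and 79.8 in induced and 89.9, 166, 103 and 166 in uninduced replicates, and it was open in 7 libraries.

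The authors' deposited lists were read at these regions by overlap only, as the sources used here do not state how they were made. A list that leaves out regions found without induction could share little with constant regions, so the counts are a description. The authors' deposited table of 666 Sox7 regions overlapped 661 of all 4548 merged ChIP regions and 1 of the 478 constant regions. That constant region, at chr17:36219411-36221992 near the MHC class I gene H2-T3, had no ATAC peak in any library and no peak in uninduced replicate 4. The authors' deposited table of 117 Sox7 and Gata4 regions overlapped 117 merged ChIP regions and 0 constant regions. The authors' deposited tables of ATAC regions found with induction only overlapped 439 merged ChIP regions for EPC (3267 entries) and 423 for CPC (3093 entries). Of these, 5 for EPC and 5 for CPC were constant regions.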

How the data were processed

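The data were peak lists deposited by the authors, 1 per library, with a score for each peak. The build is GRCm38 (mm10), and tools such as Bowtie2, SAMtools, bedtools, Trimmomatic and MACS 1.4 are listed, per the submitters' processing notes. The deposited score follows the MACS 1.4 format. No counts are given, so depth is unknown, and scores and ranks served only within a list.

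Peaks were merged at 1 bp overlap with Python 3.11.15, numpy 2.4.6, pandas 2.3.3 and scipy 1.17.1. The merging, the rule and the peak overlap, but not the permutation tests, were checked on simulated peak lists. Genes, promoter windows and miRNAs came from RefSeq tables of GRCm38.p6. The gene table lacks strand, so distances run to gene boundaries. A region was assigned to each protein-coding gene it overlapped, or else to the nearest within 50 kb. Values per library were compared by two-sided exact permutation tests with Benjamini-Hochberg adjustment over 20 tests. Intervals are exact (Clopper-Pearson), also for counts of 0, and cover counting error only.

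Members, gene lists and motifs were chosen with earlier results of these data known. Named regions were the 10 of highest mean rank and the 3 widest on and off input, members of gene lists with 10 or fewer regions, and those gained or lost. Genes of short RNAs, and the Rnu7 window, were added after their values had been seen. Whether replicates were separate cultures is not labelled, and p-values cover only the spread of these samples, possibly a technical one. RNA-seq samples were not analysed here.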

Additional observations from a re-analysis of the deposited data

How the results depend on the processing

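The count of 478 constant regions became 317 with ChIP scores of 100 or more and 466 to 516 when a ChIP list was left out. The on-input share of 82.0% became 86.4% with ChIP scores of 100 or more, 61.9% with input scores of 100 or more, and 80.4% to 82.8% without single lists. The snRNA share of off-input regions, 44.2%, became 79.1% with ChIP scores of 100 or more, 58.7% with lists cut to equal length, 20.9% with input scores of 100 or more and 38.4% to 47.5% without single lists. On minus off input (1.75 points) was 0.378 with ChIP scores of 50 or more, 1.21 with peaks in all 8 lists, 1.47 with ATAC lists cut to equal length, reversed to -3.87 (ChIP) and -1.13 (ATAC) with scores of 100 or more, and ran from 1.02 to 4.94 without single libraries, highest without ChIP induced replicate 4. With induced replicate 3 or uninduced replicates 1 or 2 of the ChIP left out it lost its unadjusted call (1.52, 1.04 and 1.02). EPC minus CPC (0.680 points) reversed to -0.394 and -0.366 with ChIP and ATAC scores of 100 or more and to -0.523 with ATAC lists cut, and ran from -0.418 to 1.78 without single libraries. On input it reversed to -0.211 (ChIP 50), -0.365 (ChIP 100), -0.394 (ChIP lists cut), -0.591 (input 100), -1.02 (ATAC 100) and -1.40 (ATAC lists cut), with -0.829 to 1.21 without single libraries. Off input it reversed to -0.581 (ChIP 100). Induced minus uninduced off input reversed to 0.794 (ChIP lists cut), to 0.581 in EPC (ATAC 100), and in CPC to 1.37 (ChIP 50), 3.97 (ChIP lists cut) and 0.510 (input peaks covering 50% of a region), with -3.49 to 2.33 without single libraries. Rank differences reversed to 1.36 on input between cell types (ATAC 100), to -0.350 (input 100) and -0.0444 (ATAC lists cut) off input on induction, and ran from -0.0420 to 1.39 off input between cell types without single libraries. None of the reversed values passed 0.05 except -3.87, and the causes were not tested.

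Same-numbered ATAC libraries were not treated as pairs. Their deviations correlated at 0.00902 in EPC and 0.00391 in CPC between induced and uninduced libraries. Between cell types they correlated at -0.00209 in induced and 0.0918 in uninduced libraries. These values do not tell whether same-numbered libraries came from the same culture. With the replicate block, induced minus uninduced stayed -2.67 points (p = 0.125, exact permutation) and EPC minus CPC 0.680 (p = 0.875), and no call changed. Constant minus other ChIP regions stayed positive in every setting run, from 39.0 to 46.8 points without single libraries. Of 698 values recomputed, 644 kept their direction and call. Depth is unknown, so a missing peak sets no limit.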
